A study of Mus musculus with 6 samples.

Results

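Guca2a and Guca2b encode guanylin and uroguanylin, a pair of small peptide hormones, and were followed in cultured mouse hepatocytes exposed to tumour necrosis factor alpha (TNFα), an inflammatory cytokine. They are 2 of the 13438 genes tested, and each was measured by 1 of the 45281 probes on the array, ILMN_2635395 for Guca2a and ILMN_2744846 for Guca2b, found through the platform's probe table. Both genes were selected on their intensities after 2 days, which earlier results of these arrays showed to be high and widely spread, where Guca2b had the 4th and Guca2a the 9th largest rise over untreated cells among all genes tested. Their 2 day values are therefore given as a description, with no test.

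The primary hepatocytes were isolated from male mice of the strain C57Bl/6J, and their RNA was hybridised as biotin-labelled cRNA to 6 single-colour Illumina arrays. The 3 groups of 2 arrays each were untreated cells, cells exposed to 2 ng/mL recombinant murine TNFα for 2 hours, and cells exposed to it at that dose for 2 days. All cells were plated on collagen in Williams' E medium containing 50 nM dexamethasone, 1 nM insulin and 5% fetal calf serum. Nothing in the labels says whether the 2 replicates of a group were separate animals or cultures. The p-values thus reflect the spread among these arrays alone, and this spread may be technical. The time in culture of the untreated cells is not labelled either, so 2 days of TNFα and time in culture cannot be told apart.

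The deposited intensities were on a linear scale and shared 1 distribution over the 6 arrays, with array medians of 143.16 to 143.22. Over the genes tested, correlations were 0.995 to 0.996 within groups and 0.982 to 0.991 between groups. Of 10 hepatocyte markers, Ttr and Apoa1, which encode abundant plasma proteins, were at 26928 to 34024 and 21974 to 42029. The Alb probe, at 145 to 174, and the Tat probe, at 111 to 123, were near or below the array medians on every array. No value lies below 96.54, so background is still in the intensities and changes of dim probes are understated.

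Guanylin and uroguanylin are made as inactive propeptides, mainly by the epithelium of the intestine, and are released into its lumen and into the blood. Both bind guanylate cyclase C, a receptor encoded by Gucy2c that bacterial heat-stable enterotoxins also bind. The receptor raises cyclic GMP, which through cGMP-dependent protein kinase II opens the chloride channel CFTR and restrains the sodium/proton exchanger NHE3, so that salt and water enter the gut lumen. Hepatocytes are not a classical source of either peptide.

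Guca2a and Guca2b are neighbours on mouse chromosome 4, with no other gene between their starts in the RefSeq gene table of GRCm38.p6, and they lie on opposite strands. Because the 2 genes move together on these arrays, the 250 bases before each RefSeq start are shown, with matches to the motifs named next in capitals. Guca2a lies on the plus strand, with the window at chr4:119637482-119637731, and Guca2b on the minus strand, with the window at chr4:119658946-119659195; both sequences are RefSeq's, build GRCm38.p6, 5′ to 3′ along the gene.
Guca2a promoter: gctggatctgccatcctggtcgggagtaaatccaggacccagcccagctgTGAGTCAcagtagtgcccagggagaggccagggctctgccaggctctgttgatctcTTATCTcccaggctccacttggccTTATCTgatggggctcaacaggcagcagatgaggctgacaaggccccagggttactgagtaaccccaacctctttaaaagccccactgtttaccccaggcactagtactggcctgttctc
Guca2b promoter: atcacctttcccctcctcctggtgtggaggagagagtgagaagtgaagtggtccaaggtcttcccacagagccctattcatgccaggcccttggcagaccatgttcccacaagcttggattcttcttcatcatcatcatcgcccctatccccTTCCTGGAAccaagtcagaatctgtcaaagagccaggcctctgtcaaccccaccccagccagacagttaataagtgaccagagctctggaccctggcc

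The 6 motifs searched on both strands were TATAAA for the core promoter box of that name, TGANTCA for AP-1 factors, AGATAA for GATA factors, TTCNNNGAA for STAT factors, TTGCNNAA for C/EBP factors and the consensus of NF-κB by its name; they were picked with these sequences in view. The Guca2a window held an AP-1 match 200 to 194 bases before the start and 2 GATA matches on the opposite strand, at 144 to 139 and 120 to 115 bases before it. The Guca2b window held a STAT match 98 to 90 bases before the start. No motif was found in both windows. Among 32536 different promoter windows of the same length in the RefSeq table, 6.73% held the AP-1 motif, 9.97% GATA and 7.04% STAT. The NF-κB consensus, held by 3.92% of windows, the C/EBP motif (9.57%) and the TATA box (12.3%) are not in either window. A match is a description of letters and not a binding site. The windows held 57.2% G and C for Guca2a and 54.4% for Guca2b.

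Guca2a was low in untreated cells and after 2 hours and several fold higher after 2 days. Its intensity was 160.3 and 155 in untreated cells, 169 and 178 after 2 hours of TNFα, and 423 and 726 after 2 days. All 6 arrays stood above their array's median intensity, the untreated ones at percentiles 65.5 and 62.4 of all probes, the 2 hour ones at 69.0 and 71.4, and the 2 day ones at 85.4 and 90.04. The group means were 158 ± 3.69 in untreated cells, 173 ± 6.64 after 2 hours and 574 ± 214 after 2 days (SD, n = 2 each).

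Guca2b began lower, at the dim end of the array. Its intensity was 124 and 121 in untreated cells, 134 and 129.8 after 2 hours, and 362 and 752 after 2 days. The 4 untreated and 2 hour arrays were below their array's median, the untreated ones at percentiles 12.2 and 7.27 of all probes and the 2 hour ones at 33.3 and 24.0, while the 2 day arrays were at 83.7 and 90.3. The group means were 122 ± 2.33, 132 ± 3.0 and 557 ± 276 (SD, n = 2 each) for untreated cells, 2 hours and 2 days. A probe was tested when at least 2 arrays were above that array's 50th percentile. Guca2b passed through its 2 day arrays alone, whereas Guca2a passed on all 6 arrays.

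**Figure D1:**
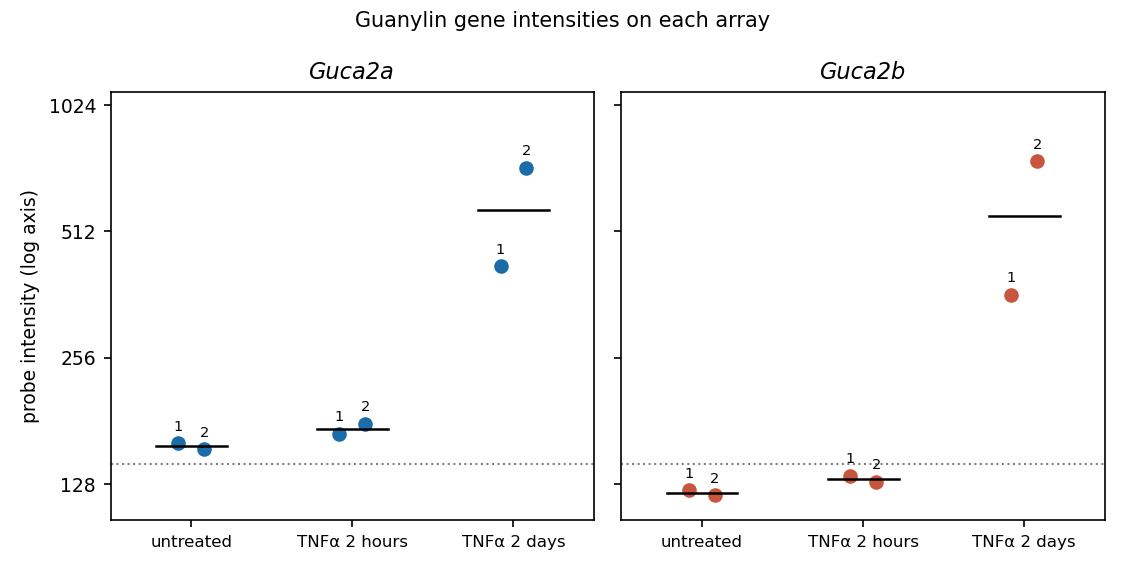
Probe intensity of Guca2a (left) and Guca2b (right) on each of the 6 arrays, on a log axis; points are single arrays numbered by replicate, short lines are group means of the 2 arrays, and the dotted line is the array median. The 2 day arrays of both genes lie far above the other 4 and apart from each other, with replicate 2 at 726 and 752 against replicate 1 at 423 and 362.

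The order of the group levels was the same for both genes, lowest in untreated cells, then 2 hours, then 2 days. The 2 day mean stood above the untreated mean by 1.81 on the log2 scale for Guca2a, a 3.51-fold difference, and by 2.09 for Guca2b, a 4.27-fold difference. Against the 2 hour mean it stood 1.68 higher for Guca2a and 1.98 higher for Guca2b (log2). These 2 differences share the 2 day arrays. In the comparison of 2 days with untreated cells 12.7% of all genes were called by limma at an adjusted p under 0.05, 6.74% higher and 5.92% lower, and 15.3% were called between 2 days and 2 hours. The 2 day and untreated arrays stood fully apart for 49.6% of genes, in the higher direction for 26.1%. Both guanylin genes are among these by choice. After normexp background correction the 2 day differences were larger, 2.79 for Guca2a and 3.78 for Guca2b (log2).

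The 2 hour values played no part in the choice of the genes, though they are set against the same untreated arrays. For both genes each 2 hour array was above each untreated array, which was so for 18.0% of all genes tested, 40.4% not overlapping in either direction. The difference was 0.14 on the log2 scale for Guca2a (SE 0.15, limma adjusted p = 0.827, with a 95% interval from -0.17 to 0.44). For Guca2b it was 0.11 (SE 0.18, limma adjusted p = 0.897, with a 95% interval from -0.26 to 0.48). Neither gene was called, beside 2.82% of all genes called at 2 hours. Those intervals carry the wide spread of the 2 day arrays, since the 3 groups share 1 estimate of the error. With the untreated and 2 hour arrays alone the intervals narrowed to -0.07 to 0.35 for Guca2a and -0.10 to 0.32 for Guca2b. Neither gene was called there either (limma adjusted p = 0.704 and 0.786). The intervals refer to intensities that still hold background and do not bound the change of Guca2b, which was below the array median on all 4 of these arrays.

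The spread between the 2 day arrays was also large. It was known when the 2 genes were chosen, so its size and ranks are a description. Guca2b was 2.08-fold higher on replicate 2 than on replicate 1 of the 2 day group (log2 1.06), the largest difference between these 2 arrays among the 13438 genes. Guca2a was 1.72-fold higher on the same array (log2 0.78), the third largest. The median gene differed by 0.0999 between these arrays, and 95% of genes by no more than 0.305 (log2). In the other groups the guanylin genes differed little between replicates, by 0.04 to 0.08 on the log2 scale. The ranks are the same after median centring and cyclic loess, whereas after normexp Guca2b ranked 12th with a 2.44-fold and Guca2a 103rd with a 1.91-fold difference.

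Set against the untreated mean, Guca2a was 2.68-fold higher on 2 day replicate 1 and 4.60-fold on replicate 2. Guca2b was 2.96-fold higher on replicate 1 and 6.16-fold on replicate 2. Each 2 day array alone therefore stood above the untreated arrays for both genes, and the size of the difference depended on which array was used. Over all genes tested, 6815 of 13438 were higher on replicate 2. The deposited arrays share 1 distribution, which by itself keeps such a split nearly even. That count therefore cannot show whether the array as a whole leaned to 1 side. Among the called genes that rose at least 2-fold at 2 days, 45 of 80 were higher on replicate 2. Their median was -0.03 for replicate 1 minus replicate 2 (log2).

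By the naming rule, the 5 genes with the largest excess on replicate 2 were Guca2b, Bst2, Guca2a, Ifit3 and Cyp3a11. Bst2, which encodes the interferon-inducible antiviral protein tetherin, had 1713 on replicate 1 and 2984 on replicate 2 (log2 0.80). Ifit3, another interferon-inducible gene, had 329 and 526 (log2 0.68), and the cytochrome P450 gene Cyp3a11 had 311 and 476 (log2 0.61). The 5 with the largest excess on replicate 1 were Oat, Hspb1, Gnas, Pkm and Dpm2, at 0.63 to 0.65 on the log2 scale. A gap over 0.5 was found for 16 genes on the side of replicate 2 and for 27 on the side of replicate 1. What differed between the 2 samples or arrays was not tested.

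**Figure D2:**
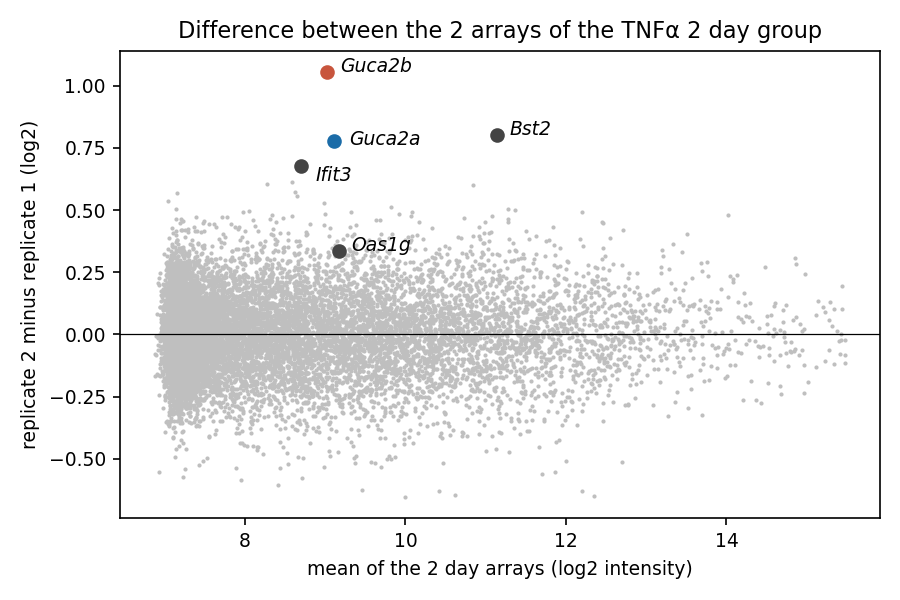
Difference between replicate 2 and replicate 1 of the TNFα 2 day group (log2) against the mean of the 2 arrays (log2 intensity) for 13438 genes in grey, with 5 genes marked. The marked genes were picked by hand and not by rank. Cyp3a11, also among the 5 genes with the largest excess on replicate 2, is not marked, whereas Oas1g is not among those 5. Guca2b at 1.06 and Guca2a at 0.78 lie at the upper edge with Bst2 and Ifit3, and Oas1g, at 0.33, lies below them, past the 0.305 that 95% of genes do not exceed.

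Guca2a and Guca2b followed each other closely, with a Pearson correlation of 0.998 over the 6 arrays on the log2 scale. The same measure named the genes most like them among 243 candidates whose group means spanned at least 1 on the log2 scale. The 4 genes that came next were the same for both: Oas1g, an interferon-inducible oligoadenylate synthetase (0.994 with Guca2a and 0.993 with Guca2b), Fgf13, an intracellular fibroblast growth factor homologue (0.989 and 0.980), Ms4a6d, a membrane-spanning protein (0.988 and 0.978), and Maged2, of the melanoma antigen family (0.985 and 0.976). These correlations are a description. They rest mainly on the 2 day arrays standing apart from the other 4, which the requirement of a wide span favours.

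All 4 genes were also higher on 2 day replicate 2 than on replicate 1. Oas1g had 282 and 272 in untreated cells, 298 and 278 after 2 hours, and 512 and 645 after 2 days. Fgf13 had 453 and 409.5 in untreated cells, 449.9 and 481 after 2 hours, and 1175 and 1452 after 2 days. Their differences between the 2 day replicates, 0.33 and 0.31 on the log2 scale, were well under those of the guanylin genes, and those of Ms4a6d and Maged2 were 0.24 and 0.22. Other probes of Oas1g gave 2 day changes of 0.86 and -0.04, those of Fgf13 0.50 and 0.00, and that of Ms4a6d 0.44 (log2), so only part of their probes follow this pattern.

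**Figure D3:**
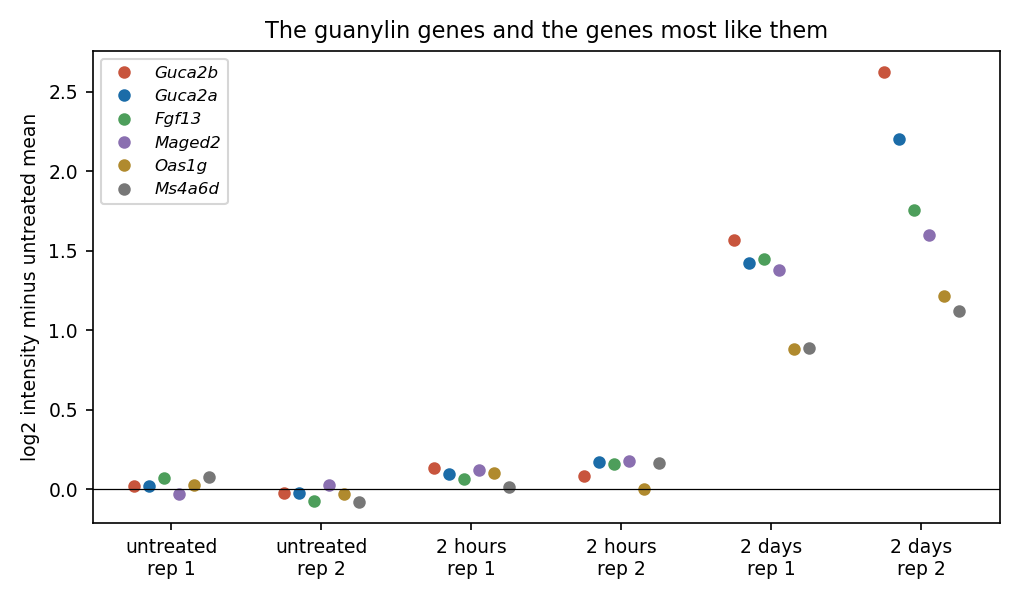
Log2 intensity minus the mean of the 2 untreated arrays for Guca2b, Guca2a and the 4 genes most like them, on each of the 6 arrays. The 6 genes stay near 0 on the untreated and 2 hour arrays and rise on both 2 day arrays, and Guca2b spreads most between the 2 day replicates (1.57 and 2.62).

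The gene of the receptor was not called at either time. Gucy2c, which encodes guanylate cyclase C, had 142 and 135 in untreated cells, 133 and 146 after 2 hours, and 134 and 146 after 2 days on its brightest probe, with all groups overlapping (log2 0.02 at 2 days, SE 0.10, limma adjusted p = 0.946). Its 2 other probes lay between 113 and 135 on all 6 arrays. All 3 probes were thus around or below the array medians in every group, where a low level and none look alike.

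Of a list of 35 genes of guanylin and cyclic GMP signalling, 28 were tested, and the 7 that did not pass the filter included Cftr, the chloride channel, and Slc9a3, which encodes NHE3. Of the 28, 20 stayed below an intensity of 200 on every array, while Furin, the scaffold gene Slc9a3r1 and Pdzk1 were among the 8 that were brighter. On each gene's brightest probe limma called 0 of 28 at 2 hours, beside 2.82% of all genes, and 0 also after normexp and in each other setting tried on those probes. An unadjusted p under 0.05 was found for 3, and the share of all genes at that threshold was not counted. Over all 41 probes of these genes that passed the filter, 1 was called at 2 hours, a second probe of Furin that was higher by 0.44 (log2, limma adjusted p = 0.0231). At 2 days 2 were higher and 2 lower, which is 14.3% of the list beside 12.7% of all genes. The list's median change was 0.01 at 2 hours and 0.00 at 2 days, beside -0.01 and 0.01 for all genes (log2).

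The cGMP-dependent kinases Prkg1 and Prkg2 had 2 day changes of 0.09 and 0.00 on the log2 scale, and neither was called (limma adjusted p = 0.708 and 0.994). Abcc4, which encodes a transporter that exports cyclic nucleotides among other anions, had 344 and 329 after 2 days, against 164 and 166 in untreated cells. Both 2 day arrays of Abcc4 were above both untreated arrays, which was so for 26.1% of all genes. It rose by 1.03 on the log2 scale (SE 0.10, limma adjusted p = 2.74e-08). Pdzk1, a scaffold protein that binds membrane transporters, had 294 and 336 after 2 days, against 831 and 755 in untreated cells, and fell by 1.33 (SE 0.11, limma adjusted p = 8.70e-10). Its 2 other probes were lower as well, at -0.50 and -1.30.

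The other 2 called genes changed little. Npr2, the receptor guanylate cyclase for C-type natriuretic peptide, had 362 and 340.1 after 2 days, against 278 and 279 in untreated cells (log2 0.33, limma adjusted p = 0.0258). That call was lost without any 1 of these 4 arrays, with values of 0.29 to 0.38, and after normexp. Furin, a proprotein convertase, had 5252 and 5147 after 2 days, against 6917 and 6439 in untreated cells (log2 -0.36, limma adjusted p = 0.0183). Its call was lost without untreated replicate 1 (-0.31), 2 day replicate 1 (-0.37) or 2 day replicate 2 (-0.35), after normexp and with the mean of its probes. The Furin probe that was higher at 2 hours gave -0.14 at 2 days and was not called there.

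**Figure D4:**
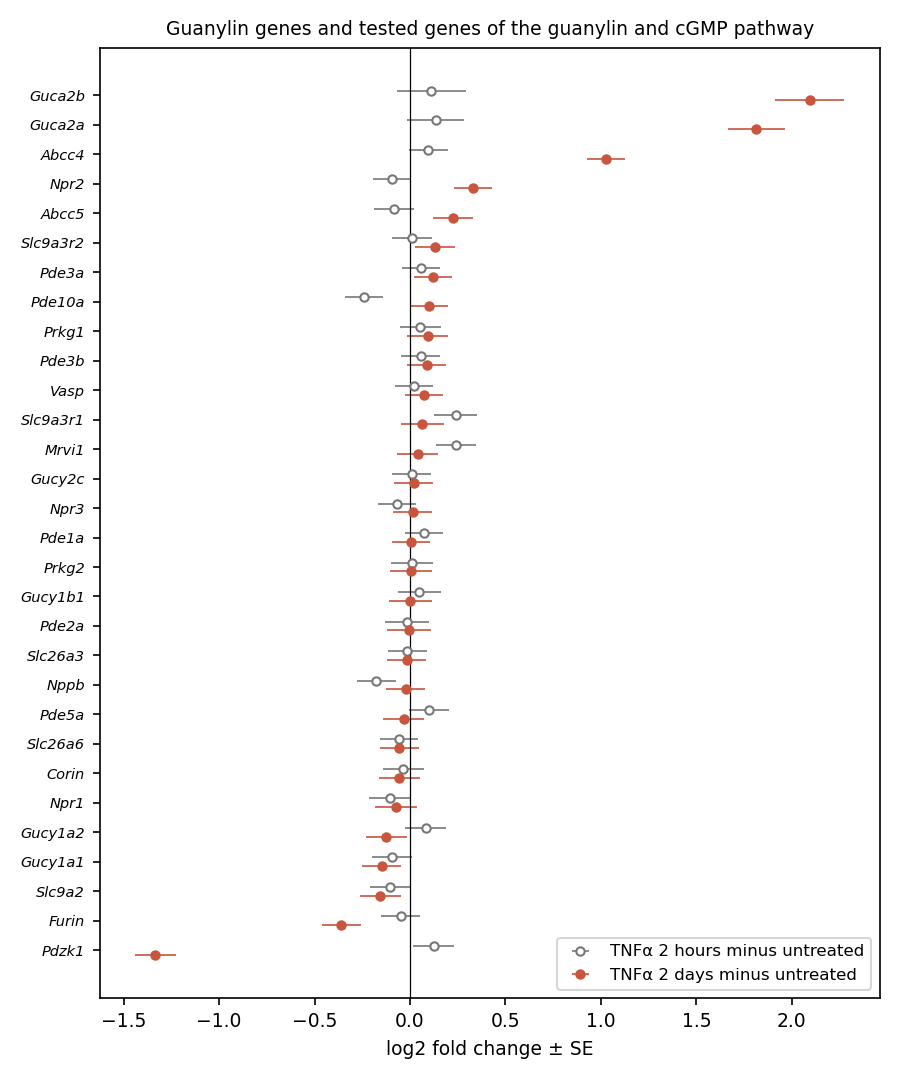
Log2 fold change ± SE of the 2 hour (open) and 2 day (filled) groups against untreated cells for the 2 guanylin genes, at the top, and the 28 tested genes of the guanylin and cyclic GMP list, ordered by their 2 day value. Most of the list lies near 0 at both times, with Abcc4 at 1.03 and Pdzk1 at -1.33 apart from the rest at 2 days; the guanylin genes were chosen for their 2 day values.

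Transcription factors linked with guanylin transcription in the gut, or with cytokine signalling, were looked at as a further list of 20, of which 13 were tested. By limma 1 was higher and 1 lower at 2 hours, which is 15.4% of the list beside 2.82% of all genes. At 2 days 0 were higher and 4 lower, which is 30.8% beside 12.7%. The 4 that fell at 2 days were the hepatocyte nuclear receptor Hnf4a (-0.82), the AP-1 subunit Fos (-0.62), Cebpb (-0.54) and Stat3 (-0.35, limma adjusted p = 0.0427). Hnf4a had 1286 and 1186 after 2 days, against 2392 and 1982 in untreated cells. Its call was kept in every setting tried. The calls of Fos, Cebpb and Stat3 were lost after normexp, and that of Stat3 also without each array in turn other than untreated replicate 2, at -0.40 to -0.17, and in several other settings; its 2 other probes gave -0.24 and 0.30, neither of them called. The 2 hour calls, named after their values were seen, were the NF-κB subunit Rela (0.54) and the forkhead factor Foxa2 (-0.74), both lost after normexp. The Rela call was also lost without untreated replicate 1 (0.46) or either 2 hour array (0.45 and 0.62). The intestinal factors Cdx2, Spdef and Atoh1 did not pass the filter, with no array above 149.

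Among markers of the intestinal cells that normally make these peptides, none was called higher. Of 13 goblet and enteroendocrine markers 3 were tested, 0 rose and 1 fell at 2 days, beside 6.74% of all genes higher and 5.92% lower. That gene was Tff3, a trefoil peptide, with 775 and 937 after 2 days, against 1355 and 1017 in untreated cells (log2 -0.46, limma adjusted p = 0.0105), a call lost without untreated replicate 1 (-0.25) or 2 day replicate 1 (-0.33) and after normexp. The goblet cell mucin Muc2 was at 137 to 159 and the neuroendocrine granule protein Chga at 132 to 144 over all arrays. The summed intensity of the list was 2593 to 2942 in untreated cells, 2794 to 2889 after 2 hours and 2356 to 2560.3 after 2 days, a sum led by Tff3. Of 10 enterocyte markers 5 were tested and limma called 0 at either time, beside 2.82% of all genes called at 2 hours and 12.7% at 2 days. An unadjusted p under 0.05 was found for 1 at 2 hours and 0 at 2 days. The share of all genes at that threshold was not counted. With background in all intensities, no marker is at 0.

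Markers of other liver cells moved in part at 2 days, when the guanylin genes were high. In bulk samples, more or fewer cells of a type and more or less RNA per cell cannot be told apart. All counts of these lists stand beside 6.74% of all genes called higher and 5.92% called lower at 2 days. Of 9 bile duct markers 5 were tested and 2 rose, Sox9, a transcription factor of duct cells (1.78), and Krt23 (0.52; 0.38 and not called without 2 day replicate 2, and lost after normexp), while the duct keratins Krt7 and Krt19 (0.09 and 0.19) were not called and Epcam did not pass the filter. The summed duct list was 1858 to 1897 in untreated cells, 2539 to 2558 after 2 hours and 3945 to 4277 after 2 days, a sum led by Sox9. Of 11 macrophage markers 8 were tested and 3 rose, the complement genes C1qb (0.75), C1qc (0.42) and C1qa (0.36). The other tested markers were not called, with Adgre1 at -0.04, Lyz2 at -0.09, Csf1r and Vsig4 at 0.08 each, and Marco at 0.30. The summed macrophage list was 1618 to 1667 in untreated cells, 1596 to 1629 after 2 hours and 1835 to 2016 after 2 days. Its rise was led by the 3 complement genes. The C1qc and C1qa calls were each lost without 2 day replicate 2 (0.30 and 0.28), and also without untreated replicate 1 for C1qc (0.32) and untreated replicate 2 for C1qa (0.31). The Kupffer cell marker Clec4f was at 124 to 139.7 on all arrays and did not pass the filter.

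Of 5 tested stellate markers 1 was called higher and 1 lower at 2 days, and of 7 tested endothelial markers also 1 and 1. Those are 40% and 28.6% of the tested members beside 12.7% of all genes, and rest on 2 genes in each list. Acta2 rose by 0.67, a call lost without untreated replicate 1 (0.45) or 2 day replicate 2 (0.43), and Reln fell by 0.82, while Oit3 rose by 0.43 and Stab2 fell by 0.37 (log2). Other probes of Reln (0.14) and Oit3 (-0.10) did not follow. Those of Acta2 gave 0.13 and 0.17, not called, and 0.42, called (limma adjusted p = 0.00879), and the Acta2 call was lost with the mean of its probes (0.35), as was that of Oit3 (0.165). The Oit3 call was lost without untreated replicate 2 (0.33) or 2 day replicate 1 (0.38), and the Stab2 call without untreated replicate 1 (-0.32) or either 2 day array (-0.41 and -0.33). The stellate sum was 2551 to 3049 in untreated cells, 2588 to 2805 after 2 hours and 3184 to 3939 after 2 days. Its rise was that of Acta2, at 1343 and 1812 in untreated cells and 2107 and 2906 after 2 days. The endothelial sum was 1465 to 1597 in untreated cells, 1516 to 1715 after 2 hours and 1453 to 1518 after 2 days. After normexp the calls of C1qc, Acta2, Oit3 and Stab2 were lost. At 2 hours Sox9 (0.79) and Reln (0.43) were the called genes of the cell type lists, both higher, beside 2.82% of all genes called. The Reln call was lost without any 1 of the untreated and 2 hour arrays (0.40 to 0.46). At 2 hours the other probe of Sox9 gave 0.54 and was called, and that of Reln gave 0.10 and was not. Of 8 lymphocyte and neutrophil markers 2 were tested, and limma called 0 at either time, beside 2.82% of all genes at 2 hours and 12.7% at 2 days. An unadjusted p under 0.05 was found for 0, and the share of all genes at that threshold was not counted. Of the 10 hepatocyte markers 9 were tested and 5 fell, which is 55.6% of those tested beside 5.92% of all genes lower, led by the urea cycle enzyme gene Cps1 (-3.10), Cyp3a11 (-2.97) and the asialoglycoprotein receptor gene Asgr1 (-1.60), with Apoa1 at -0.82. The part of any of these cell types in the guanylin values was not tested.

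Of the genes next to the pair on chromosome 4, 3 were tested and none was called higher at 2 days. Among all genes 6.74% were called higher and 5.92% lower, and 3 genes are too few to set against those shares. Foxj3, a forkhead transcription factor gene on the far side of Guca2a, had 582 and 537 after 2 days, against 627 and 567 in untreated cells (log2 -0.09, limma adjusted p = 0.685), and its 5 other probes gave -0.26 to 0.03. Frg2f1 had 171 and 169 after 2 days, against 204 and 191 in untreated cells (log2 -0.21, limma adjusted p = 0.213). On the other side, Hivep3, a zinc finger transcription factor gene, was lower, with 183 and 172 after 2 days, against 208 and 249 in untreated cells (log2 -0.36, limma adjusted p = 0.0233). The Hivep3 call was lost after normexp, with the mean of its probes, and without untreated replicate 2 (-0.23), 2 day replicate 1 (-0.40) or 2 day replicate 2 (-0.31), and its other probe gave -0.06. Rnu6-ps2, Gm35761 and Gm35957, the remaining near neighbours, have no named probe in the data used here.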

How the data were processed

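Biotin-labelled cRNA from 6 samples was hybridised to Illumina mouse arrays, per the labels' protocols. The authors deposited 1 linear intensity per probe and array for 45281 probes; their scanning, summarising and normalization are steps not given in the sources used here. Sorted columns of these deposited intensities differed by at most 0.333% at any rank. The platform's probe table gave 34885 probes 1 symbol and 18 several, and left 10378 unlisted. For 34807 of the probes with 1 symbol the gene was found in RefSeq (GRCm38.p6), and its symbol there was used, changed or not. Intensities were taken to log2 without further scaling. The 26272 probes above the 50th percentile on at least 2 arrays passed, 21425 with 1 symbol, and each gene took its brightest probe, giving 13438 genes. Group means were estimated over all 6 arrays by limma 3.58.1 under R 4.3.3 (3 residual and 21.22 prior degrees of freedom), with Benjamini-Hochberg adjustment over all genes and a threshold of 0.05. The fit was tested on simulated data. The number of arrays limits the precision.

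The 2 genes and all lists were chosen with earlier results of these data known. Named were called members of the pathway list, up to 4 called members of each other list by size at 2 days, the 3 nearest genes on each side, the 5 genes most correlated with each guanylin gene, and the 5 with the largest excess on each 2 day array. Clone and locus names were passed over, except as neighbours. The alternatives were median centring, cyclic loess, normexp (offset 16), an offset of 16, no filter or the 70th percentile, other handling of probes and variances, the compared groups alone, a replicate block, and leaving out each array.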

Additional observations from a re-analysis of the deposited data

Results flagged for a closer look

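The 4 named genes of the guanylin and cyclic GMP list differed between the 2 exposure times, by the test of 2 days minus 2 hours itself. That test called 15.3% of all genes. Pdzk1 was lower at 2 days, at -1.46 on the log2 scale (SE 0.11, limma adjusted p = 2.18e-10). Abcc4 was higher at 2 days by 0.93 (SE 0.10, limma adjusted p = 1.35e-07) and Npr2 by 0.43 (SE 0.10, limma adjusted p = 0.00303). Furin was lower at -0.31 (SE 0.10, limma adjusted p = 0.0382). These genes had been named because they were called at 2 days against untreated cells, and that comparison uses the same 2 day arrays. Pde10a and Abcc5, of the same list but not called against untreated cells, were also higher at 2 days than at 2 hours. Their differences were 0.34 and 0.31 (log2, limma adjusted p = 0.0205 and 0.0499). With 2 arrays in a group, no single array could be tested as an outlier.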

How the results depend on the processing

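Neither guanylin gene was called at 2 hours in any setting, and the direction was the same throughout, from 0.10 to 0.30 for Guca2a and from 0.09 to 0.39 for Guca2b (log2). Among the settings that kept all 6 arrays, only normexp moved the 2 day differences by more than the spread of the 2 day arrays, to 2.79 for Guca2a and 3.78 for Guca2b. Leaving out a 2 day array could not move these differences by that spread, whatever the values. Without 2 day replicate 1 they were 2.20 and 2.62, and without 2 day replicate 2 they were 1.42 and 1.57; leaving out an untreated array gave 1.79 to 1.84 and 2.08 to 2.11. Over all genes, 379 were called at 2 hours and 1701 at 2 days. After normexp these counts were 95 and 655, and 250 were called at 2 hours when probes of a gene were averaged; the cause was not tested. Leaving out 1 array gave 187 to 384 calls at 2 hours and 1150 to 1536 at 2 days, with 209 and 187 at 2 hours without replicate 1 and replicate 2 of that group. Between groups, deviations matched by replicate number had correlations of -0.15 to 0.04, so no effect shared by arrays of the same number was seen. That cannot show whether arrays of the same number came from the same cells. With the number as a block 363 and 1638 genes were called. Guca2a was then at 0.14 and Guca2b at 0.11 at 2 hours, and at 1.81 and 2.09 at 2 days. Guca2b lies below the array median in 4 of 6 arrays, so its fold depends on the background subtracted, and no detection p-values were used here.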

Other observations

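Spink4, a peptide gene of goblet cells that did not pass the filter, had 131 and 131 in untreated cells, 119 and 133 after 2 hours, and 138 and 173 after 2 days. Its highest value was on 2 day replicate 2, the array on which both guanylin genes were highest. The gene was singled out after its values were seen, and it was not tested. Over the 2 day replicates, other goblet and enteroendocrine markers went either way. Agr2 had 133 on replicate 1 and 123 on replicate 2, and Chga had 137 and 144.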
